A study of Homo sapiens with 9 samples.

Results

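BD and NBD are the names the labels give to 2 subpopulations of HaCaT cells, an established line of immortalized human keratinocytes, and the comparison described here takes the 3 libraries labelled BD against the 3 labelled NBD, 6 of the 9 libraries of the study. The labels do not spell out either name, and the names are used as given. The other 3 libraries, of the cell line itself, were not used in this comparison. All cells carried the same background, with no genotype, drug or time point that differs between BD and NBD in the labels, and were grown in high-glucose DMEM with serum and low calcium. BD and NBD cells were separated by fluorescence-activated sorting, and their total RNA, depleted of ribosomal RNA, went into stranded libraries read from both ends. As a model the 2 groups are fractions of 1 established line, and the labels do not say whether replicates are separate cultures; the p-values therefore describe only the spread between these libraries, which may be technical. The labels name 2 RNA extraction kits without tying either to a library. In these bulk samples, fewer cells of a type and less RNA per cell cannot be told apart.

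Mitochondrial DNA encodes mRNAs for subunits of the respiratory chain, the rRNAs of the mitochondrial ribosome and a set of tRNAs, all cut out of long transcripts that cover nearly a whole strand. Small nucleolar RNAs guide the processing and chemical modification of ribosomal RNA in the nucleolus, and small Cajal body RNAs do the same for the RNAs of the spliceosome. Most human ones are released from introns of other genes, while the U3 RNA, which acts in the first cuts of the pre-ribosomal RNA, is transcribed from genes of its own, SNORD3A among them. In keratinocytes the basal state is marked by KRT5, KRT14 and TP63, and differentiation by KRT10 and IVL.

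Of the 5 genes that differed between BD and NBD, 2 were small nucleolar RNAs, and 2 small Cajal body RNAs lay near the threshold. Their sequences are shown because the first result below turns on them. They are GENCODE 29 transcripts on GRCh38, printed 5′ to 3′ as DNA letters. Capitals mark TGATGA and CTGA, the usual letters of boxes C and D, which bind the core proteins of this class. The letters were searched on the RNA strand only, and 0 bases of the matches overlapped. The SNORD3A transcript shown, the shortest of its gene, lies at chr17:19188016-19188232 on the plus strand. The gene itself runs on to 19188714, and counts are per gene, so they are not limited to the bases shown. SNORD17 lies at chr20:17962710-17962946 on the minus strand, SCARNA5 at chr2:233275727-233276002 and SCARNA6 at chr2:233288676-233288940, both on the plus strand.
SNORD3A: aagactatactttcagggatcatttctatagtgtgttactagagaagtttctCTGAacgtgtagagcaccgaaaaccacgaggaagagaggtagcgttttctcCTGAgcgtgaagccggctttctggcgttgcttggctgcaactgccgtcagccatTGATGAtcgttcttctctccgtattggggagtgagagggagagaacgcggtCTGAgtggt
SNORD17: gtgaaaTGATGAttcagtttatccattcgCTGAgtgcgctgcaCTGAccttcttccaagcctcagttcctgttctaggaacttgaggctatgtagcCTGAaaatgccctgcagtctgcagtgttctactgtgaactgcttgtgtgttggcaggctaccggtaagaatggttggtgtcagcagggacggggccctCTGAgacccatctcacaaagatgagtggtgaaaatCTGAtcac
SCARNA5: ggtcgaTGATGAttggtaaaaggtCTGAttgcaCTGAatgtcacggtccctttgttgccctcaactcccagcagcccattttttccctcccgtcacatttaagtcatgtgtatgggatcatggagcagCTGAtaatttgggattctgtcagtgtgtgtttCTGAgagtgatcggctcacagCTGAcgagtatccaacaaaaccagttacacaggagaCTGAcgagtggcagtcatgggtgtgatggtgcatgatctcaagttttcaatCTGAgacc
SCARNA6: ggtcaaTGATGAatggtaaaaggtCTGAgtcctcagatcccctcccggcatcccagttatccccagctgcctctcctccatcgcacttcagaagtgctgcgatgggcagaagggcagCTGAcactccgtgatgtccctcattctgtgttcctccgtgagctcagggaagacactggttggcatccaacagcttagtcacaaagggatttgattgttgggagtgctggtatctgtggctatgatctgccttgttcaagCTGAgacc
Each holds TGATGA 1 time, and CTGA 3 times in SNORD3A and SCARNA6, 5 times in SNORD17 and 7 times in SCARNA5. Among the 30 small nucleolar and Cajal body transcripts of 217 to 276 bases in GENCODE 29, 70% held TGATGA and 93.3% held CTGA. A match is a description of the letters only.

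Total counts ran from 25754757 to 29512856 per library, and 16151 genes passed the filter on low counts and were tested. The keratinocyte markers were all expressed, with a summed level of 2430 to 3258 CPM (a gene's count over its library's TMM-scaled total) in BD and 2033 to 2882 CPM in NBD, and 0 of 8 were called. Marker lists of melanocytes, fibroblasts, leukocytes, endothelium and red blood cells summed to at most 18.4 CPM in any library, and TYRP1, CD207, TYROBP, HBA1, HBA2, HBD and ALAS2 had no count in the 6 libraries. Neural markers summed to 36.2 CPM in NBD replicate 2 and to 14 to 21.8 CPM in the other 5. The libraries did not fall apart by group on their main axis of variation. The first principal component, with 49% of the variance, placed BD replicate 1 (-28.1), NBD replicate 1 (-61.6) and NBD replicate 2 (-19.4) on one side and BD replicates 2 and 3 (37.5 and 30.7) and NBD replicate 3 (40.8) on the other. The second component, with 20.2%, placed BD replicates 1 to 3 (-23, -13.1 and -18.1) below NBD replicates 1 to 3 (-10.3, 47.7 and 16.9). BD replicate 1 correlated more closely with NBD replicate 1 (Pearson's r over genes 0.9854) than with BD replicate 2 (0.9761). NBD replicate 2 alone held 16 genes with at least 10 counts there and at most 1 in each of the other 5 sorted libraries, among them ANK1 at 58 counts and ADD2 and SLCO2A1 at 39 each, which were chosen after their values were seen.

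Between BD and NBD, 5 of 16151 genes were called, all lower in BD (edgeR quasi-likelihood test, adjusted p under 0.05, 0.031% of genes tested), and 0 were called higher (0%). The 5 were the small nucleolar RNAs SNORD3A and SNORD17 and the mitochondrial mRNAs MT-CYB, MT-ND4 and MT-ATP6. At an unadjusted p under 0.05, 902 genes were lower (5.58%) and 488 higher (3.02%), 8.61% in all. The 3 BD libraries lay wholly below the 3 NBD libraries for 1277 genes (7.91%) and wholly above them for 1106 (6.85%). DESeq2 called 90 genes lower (0.66% of the 13642 to which it gave an adjusted p) and 19 higher (0.139%), 0.799% in all, among them all 5 called by edgeR. The median log2 fold change of all genes tested was -0.022, and the common biological coefficient of variation was 0.268. Scaling by library totals in place of TMM moved that median to 0.10.

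**Figure D1:**
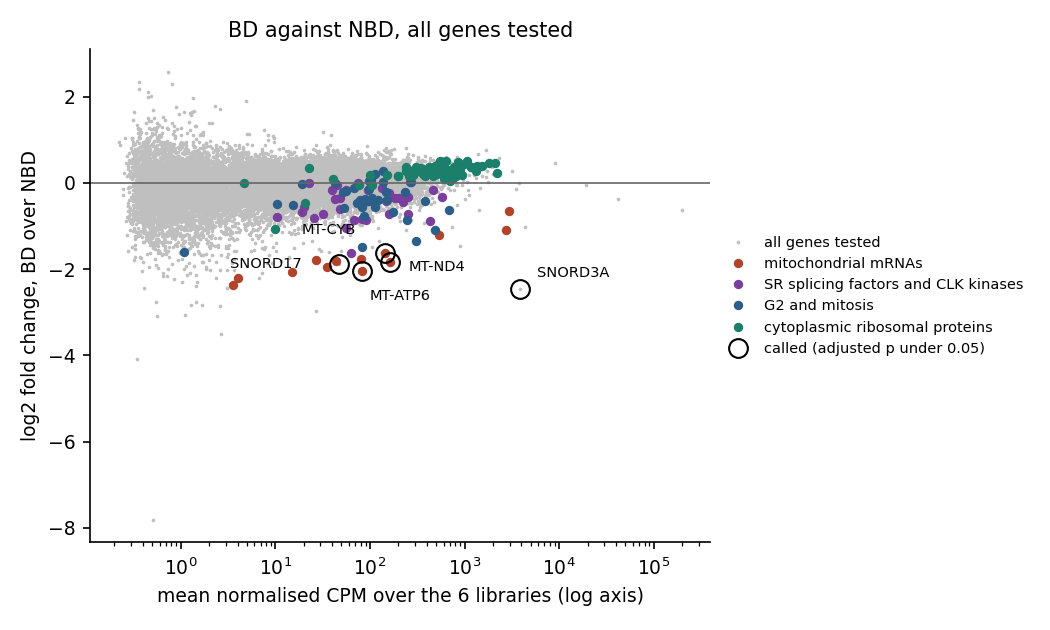
Log2 fold change of BD over NBD (vertical axis) against the mean normalised CPM over the 6 libraries (horizontal log axis) for the 16151 genes tested; colours mark members of 4 gene lists and rings the 5 called genes, which lie between -1.62 and -2.47. The lowest point, at -7.82, is MT-TE, which had no count in any BD library, so its fitted value depends on the prior count.

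Each of the 5 log2 fold change stayed between -1.51 and -2.61 when any 1 library was left out. For SNORD3A, SNORD17, MT-CYB, MT-ND4 and MT-ATP6 the calls ended when BD replicate 1 was left out (edgeR, adjusted p = 0.0914 for all 5), and likewise for BD replicate 2 (0.22 for SNORD17 and 0.306 for the other 4), BD replicate 3 (0.278 for all 5) and NBD replicate 2 (0.156 for 4 and 0.16 for MT-CYB). Without NBD replicate 1, 9 genes were called, the same 5 and MT-ND4L, MTATP6P1, SCARNA5 and SCARNA6, and without NBD replicate 3, 14 were called, again with the same 5 among them. Scaling by library totals ended the calls of MT-CYB, MT-ND4 and MT-ATP6 (edgeR, adjusted p = 0.0621, 0.0621 and 0.104), as did a fit to protein-coding genes alone (0.0506, 0.0506 and 0.0641), and the fit to all 9 libraries ended those of SNORD3A and SNORD17 (0.0566 for both).

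SNORD3A, the U3 RNA, was the most abundant small nucleolar RNA counted. It stood at 1136, 1116 and 1289 CPM in BD replicates 1 to 3 and at 5318, 7530 and 6813 CPM in NBD replicates 1 to 3. Every BD library lay far below every NBD library. The mean was 1180 ± 94.6 CPM (SD, n = 3) in BD and 6553 ± 1129 CPM in NBD, and SNORD3A fell by 2.47 ± 0.25 on the log2 scale (± standard error; edgeR, adjusted p = 0.0257). SNORD17, whose gene lies in an intron of SNX5 and which guides methylation of the large ribosomal RNA, stood at 18.4, 22.8 and 18.9 CPM in BD and at 65.9, 85.2 and 69.2 CPM in NBD. The groups did not overlap, and NBD replicate 2 was the highest for both RNAs. Its mean was 20 ± 2.43 CPM against 73.5 ± 10.3 CPM (SD, n = 3 each), and SNORD17 fell by 1.88 ± 0.18 on the log2 scale (edgeR, adjusted p = 0.0257).

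U3 has several near-identical gene copies, so the split of its reads between them is uncertain. The copies were compared over the 217 bases of the SNORD3A transcript shown, while the counts are per gene. Positions are counted from 1 at its 5′ end, with the SNORD3A base written first. SNORD3C differed by 1 base (G108A), SNORD3B-1 and SNORD3B-2 by 1 base (A78C) and SNORD3D by 3 bases (A4G, C53T and A78C). SNORD3C was at 1.01, 0.761 and 0.769 CPM in BD and 2.52, 4.91 and 4.28 CPM in NBD, again without overlap, at -2.20 ± 0.37 and without a call (edgeR, adjusted p = 0.155). SNORD3B-1 and SNORD3B-2, chosen after their values were seen, were at 0.22 ± 0.55 and 0.66 ± 0.57, with groups that overlapped. All 3 copies had levels far below those of SNORD3A in every library.

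Both small Cajal body RNAs shown above lie in introns of ATG16L1, an autophagy gene. SCARNA5 was at 4.41, 7.61 and 6.28 CPM in BD and at 22.2, 71.3 and 50.9 CPM in NBD, and its log2 fold change was -2.98 ± 0.41, short of the threshold (edgeR, adjusted p = 0.0711). SCARNA6 was at 2.02, 3.43 and 2.77 CPM in BD and at 8.14, 15.5 and 11.5 CPM in NBD, at -2.09 ± 0.31 (edgeR, adjusted p = 0.0889). DESeq2 called both SCARNA5 and SCARNA6 (DESeq2, adjusted p = 1.1e-10 and 4.7e-07). In both, the lowest NBD library was NBD replicate 1, and it still lay above all BD libraries. ATG16L1 itself was at 35.5, 32.9 and 34.4 CPM in BD and 37.6, 43 and 32 CPM in NBD, which overlapped, with a log2 fold change of -0.13 ± 0.17 (edgeR, adjusted p = 0.845).

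Of the 52 small nucleolar RNAs tested, 2 were called, 38 were below 0, 11 had an unadjusted p under 0.05 in the lower direction and 0 in the higher, and the groups did not overlap for 14, all lower in BD (over all genes tested 0.031% were called, 5.58% were lower at that p and 7.91% were lower without overlap). Their median was -0.41. These 52 were the ones that passed the filter on low counts, of 231 with a count. A small nucleolar RNA that passed only through its NBD counts had to be lower in BD, so the counts describe the 52 and not the class. Among the uncalled ones, chosen after their values were seen, SNORA53 had a mean of 0.463 ± 0.199 CPM in BD against 2.43 ± 0.593 CPM (SD, n = 3 each), SNORA74A at 0.477 ± 0.0227 against 2.03 ± 0.611 CPM, and SNORA74D at 1.02 ± 0.1 against 3.66 ± 1.28 CPM. A tested gene on the same strand spans 11 of the small nucleolar and Cajal body RNAs with an unadjusted p under 0.05, and 10 of the 11 lie in an intron of every GENCODE 29 transcript of that gene. Of the 9 spanning genes 0 were called and 5 were above 0. The 11 small RNAs were picked by their own p and the spanning genes were not, so the 2 sets cannot be weighed against each other. SNX5, a sorting nexin of endosomes that spans SNORD17, was at 159, 136 and 115 CPM in BD and 194, 198 and 155 CPM in NBD, which overlapped, at -0.42 ± 0.19 (edgeR, adjusted p = 0.584). SLC25A3, the mitochondrial phosphate carrier that spans SNORA53, was at 0.28 ± 0.19, and RCC1, CCNB1IP1, WDR43 and CWF19L1 were between 0.044 and 0.16. SNHG4, a non-coding host gene spanning SNORA74A and SNORA74D, was the exception in size, at 16.2, 7.92 and 8.09 CPM in BD and 29.5, 39.6 and 15.4 CPM in NBD, with groups that overlapped through NBD replicate 3 (-1.39 ± 0.38, edgeR, adjusted p = 0.442).

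**Figure D2:**
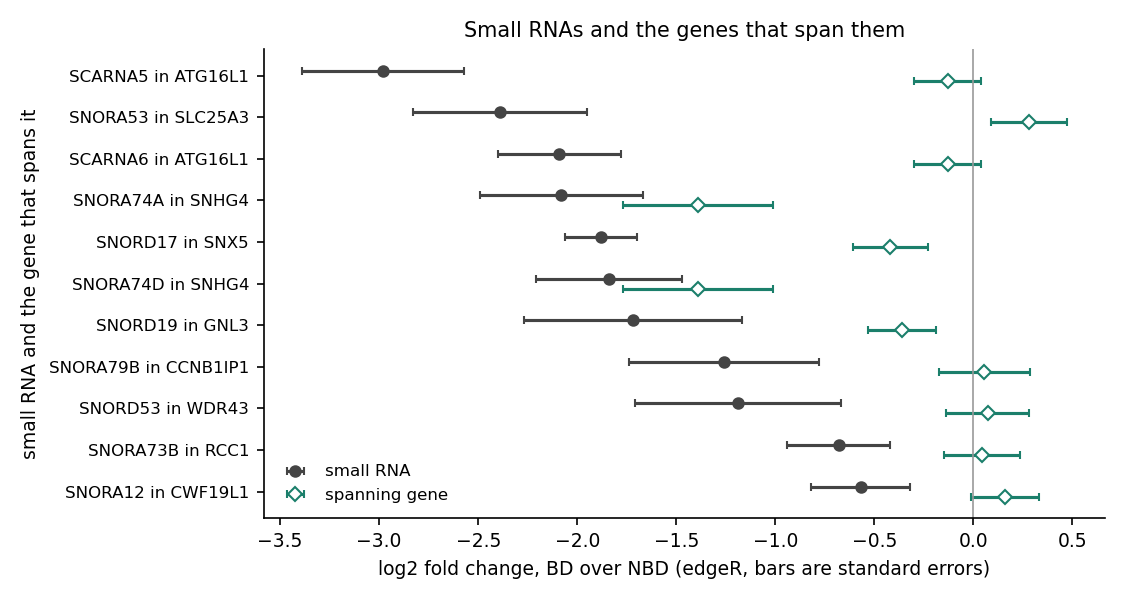
Log2 fold changes of BD over NBD for the 11 small RNAs with an unadjusted p under 0.05 and a tested spanning gene (filled circles) and for those genes (open diamonds), with standard errors as bars. All 11 small RNAs lie below 0, from -0.57 to -2.98. Of the 9 spanning genes 4 lie below 0, and SNHG4, drawn 2 times, is the lowest at -1.39. The small RNAs were picked by their own p and the spanning genes were not, so the 2 sets cannot be weighed against each other.

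As a share of all counts, small nucleolar RNA made up 0.135%, 0.126% and 0.145% of the BD libraries and 0.572%, 0.745% and 0.615% of the NBD libraries. The 2 groups were far apart, at means of 0.135% ± 0.00951 and 0.644% ± 0.0905 (SD, n = 3 each), and the exact two-sided permutation test gave p = 0.1, the smallest that 3 against 3 can give (0.183 after adjustment over 11 RNA classes). SNORD3A alone held 90.5% to 92.1% of these counts in BD and 96.7% to 97.3% in NBD. The remaining small nucleolar RNAs held 0.0115% to 0.0128% of all counts in BD and 0.0164% to 0.0227% in NBD, also without overlap. Small Cajal body RNA as a class overlapped between the groups, at 0.0292% ± 0.00589 against 0.0335% ± 0.00375 (exact permutation test, p = 0.4). Small nuclear RNA, the RNA of the spliceosome, likewise overlapped, at 0.00402% ± 0.000572 against 0.00439% ± 0.00107 (exact permutation test, p = 0.7).

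The mitochondrial mRNAs were lower in BD as a group. Of the 13, 3 were called, 13 were below 0, 13 had an unadjusted p under 0.05, and in all 13 each BD library lay below each NBD library (backgrounds as above: 0.031%, 5.58% and 7.91% of genes tested). Their median was -1.82, beside -0.022 for all genes tested. DESeq2 called 12 of the 13, all but MT-CO3. Leaving out 1 library moved the median within -1.98 to -1.57.

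Among the subunits of complex I, which takes electrons from NADH, MT-ND4 was at 79.3, 63.1 and 70.7 CPM in BD and 212, 310 and 241 CPM in NBD. The groups lay well apart, and MT-ND4 fell by 1.84 ± 0.20 on the log2 scale, from 254 ± 50.6 to 71.1 ± 8.09 CPM (SD, n = 3 each; edgeR, adjusted p = 0.0257). MT-ND5 was at 45.6, 29.1 and 35 CPM against 115, 153 and 104 CPM, at -1.76 ± 0.23 and just outside the threshold (edgeR, adjusted p = 0.0533). MT-ND4L, which overlaps MT-ND4 by 7 bases in the annotation, was at 17.8, 12.1 and 12.9 CPM against 46.4, 75.5 and 45.2 CPM, at -1.96 ± 0.26 (edgeR, adjusted p = 0.0537). In all of these NBD replicate 2 was the highest library and the other NBD libraries were close to each other. MT-ND1 (-1.82 ± 0.26), MT-ND2 (-1.78 ± 0.27) and MT-ND3 (-2.07 ± 0.50) were not called, and MT-ND3 had the widest NBD spread, at 9.2, 44.7 and 19 CPM beside 7.17, 5.82 and 4.34 CPM in BD. MT-ND6, the only mRNA of the light strand, was at 1.82, 0.533 and 1.1 CPM in BD and 5.33, 5.36 and 7.25 CPM in NBD. It had the same direction, at -2.37 ± 0.43 (edgeR, adjusted p = 0.188). The use of strand in counting is not given, so its low count may hold reads of the other strand.

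MT-CYB, cytochrome b of complex III, was at 72.4, 63.8 and 74.1 CPM in BD and 195, 247 and 207 CPM in NBD. It fell by 1.62 ± 0.17 on the log2 scale, from 216 ± 27.4 to 70.1 ± 5.52 CPM (SD, n = 3 each; edgeR, adjusted p = 0.0257), with no overlap between the groups. The subunits of complex IV, cytochrome c oxidase, had the highest levels and the smallest differences. MT-CO1 was at 1898, 1513 and 1834 CPM in BD and 3516, 3756 and 3889 CPM in NBD, at -1.09 ± 0.22 (edgeR, adjusted p = 0.274). MT-CO2 was at 311, 295 and 372 CPM against 610, 799 and 855 CPM, at -1.21 ± 0.21. MT-CO3 was at 2590, 2006 and 2359 CPM against 3382, 3582 and 3974 CPM, at -0.65 ± 0.23 (edgeR, adjusted p = 0.546). None of the 3 was called, although in each the groups did not overlap. Per kb of transcript, these 3 stood at 1104 to 4651 CPM per kb in NBD, while the other 10 stood at 11.4 to 195 CPM per kb. This level allows for length but not for reads that match several genes.

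Of the ATP synthase subunits, MT-ATP6 was at 34.9, 28.1 and 33 CPM in BD and 105, 181 and 111 CPM in NBD. It fell by 2.05 ± 0.24 on the log2 scale, from 132 ± 42 to 32 ± 3.53 CPM (SD, n = 3 each; edgeR, adjusted p = 0.0323), with NBD replicate 2 the highest and no overlap. MT-ATP8 was at 1.75, 1.26 and 1.3 CPM against 4.57, 10.3 and 5.24 CPM, at -2.21 ± 0.38 (edgeR, adjusted p = 0.155). Both genes share 46 bases on the plus strand of the mitochondrial genome, shown because a read within them matches both and cannot be assigned to either. Capitals mark the start codon of MT-ATP6 and the last 3 bases of MT-ATP8, and the stretch lies at chrM:8527-8572 on GRCh38.
MT-ATP8 and MT-ATP6 overlap: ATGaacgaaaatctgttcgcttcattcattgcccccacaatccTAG
Nuclear copies of mitochondrial DNA can also share reads with these genes. MTATP6P1, a pseudogene on chromosome 1 that resembles MT-ATP6, was at 2.53, 2.28 and 2.31 CPM in BD and 6.98, 16.2 and 9.87 CPM in NBD. Its log2 fold change was -2.21 ± 0.33 (adjusted p = 0.0889 by edgeR and 4.7e-07 by DESeq2). Its 3 NBD libraries had the same order as those of MT-ATP6.

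**Figure D3:**
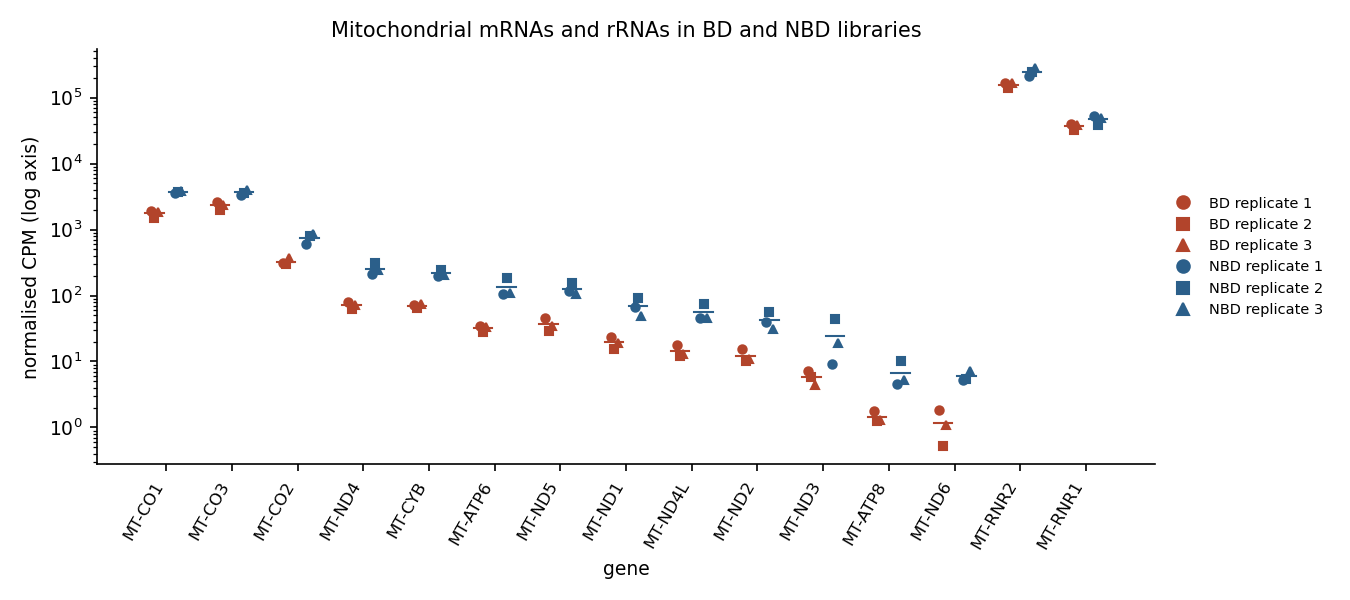
Normalised CPM (vertical log axis) of the 13 mitochondrial mRNAs, in order of their NBD mean, and of the 2 mitochondrial rRNAs in each BD (red) and NBD (blue) library; symbols mark the replicate and lines the group means. For each of the 13 mRNAs the 3 red points lie below the 3 blue ones, and MT-RNR1 at the right is the gene whose groups overlap.

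The mitochondrial rRNAs, which come from the same heavy-strand transcript, differed less and were not called. MT-RNR2 was at 168365, 137438 and 166012 CPM in BD and 209636, 239983 and 278980 CPM in NBD, without overlap, at -0.63 ± 0.38 (edgeR, adjusted p = 0.663). MT-RNR1 was at 39109, 31913 and 38354 CPM against 53328, 39000 and 49725 CPM, with NBD replicate 2 inside the BD range, at -0.38 ± 0.31 (edgeR, adjusted p = 0.742). Of the counts from the mitochondrial genome, mRNAs made up 2.4%, 2.33% and 2.31% in BD and 3.06%, 3.23% and 2.82% in NBD, without overlap (exact permutation test, two-sided, p = 0.1, the smallest possible). As shares of all counts, mitochondrial rRNA was at 20.2% ± 2.61 in BD and 27.7% ± 1.09 in NBD and mitochondrial mRNA at 0.486% ± 0.0681 and 0.865% ± 0.028 (SD, n = 3 each; exact permutation test, p = 0.1 for both, 0.183 adjusted over 11 classes). Counts of these rRNAs in rRNA-depleted libraries are those left after depletion, whose part in the result was not tested.

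Of the 22 mitochondrial tRNAs, 10 passed the filter on low counts. All 10 were below 0, at a median of -2.36, 7 reached an unadjusted p under 0.05, and edgeR called 0. A tRNA that passed only through its NBD counts had to differ, so these counts describe the 10 and not all 22. The whole class held at most 0.0019% of the counts of a library. The sequences of the 2 with the smallest unadjusted p are shown, in lower case throughout. MT-TV, the valine tRNA at chrM:1602-1670, lies on the plus strand between the 2 rRNA genes, and MT-TE, the glutamate tRNA at chrM:14674-14742, is read from the opposite strand.
MT-TV: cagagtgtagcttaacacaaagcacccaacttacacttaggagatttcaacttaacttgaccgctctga
MT-TE: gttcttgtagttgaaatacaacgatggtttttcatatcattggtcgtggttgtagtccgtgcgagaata
MT-TV was at 0.438, 0.381 and 0.301 CPM in BD and 2.92, 2.34 and 2.39 CPM in NBD, and the groups did not overlap. Its log2 fold change was -2.76 ± 0.38 (adjusted p = 0.0711 by edgeR and 9.1e-07 by DESeq2). MT-TE had 0 counts in all 3 BD libraries and 33, 11 and 37 counts in NBD. Against a floor of 3 counts per library it was at least 9.76-fold lower in BD (edgeR, adjusted p = 0.144).

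Nuclear genes for the same organelle had medians near 0. Of 77 nuclear-encoded respiratory chain genes tested, 58 were above 0, at a median of 0.11, with 0 called, 1 at an unadjusted p under 0.05 in the higher direction and 0 in the lower (backgrounds 3.02% and 5.58%). NDUFS7, a complex I subunit, was at 44, 50.7 and 45.4 CPM in BD and 34.3, 29.9 and 40.1 CPM in NBD (0.42 ± 0.17, edgeR, adjusted p = 0.568). CYC1, cytochrome c1 of complex III, was at 187, 250 and 191 CPM against 150, 167 and 187 CPM (0.32 ± 0.19). That median was -0.013 without NBD replicate 1, 0.003 without BD replicate 2, and 0.19 and 0.28 when BD replicate 1 or NBD replicate 3 was left out. Of 40 genes for mitochondrial transcription and RNA handling, 0 were called and 25 were below 0. The BD libraries lay wholly below the NBD libraries for 9 of them and wholly above for 1 (backgrounds 7.91% and 6.85%). An unadjusted p under 0.05 was reached by 2, both lower. These were POLG2, the accessory subunit of the mitochondrial DNA polymerase, at 13.3, 11.1 and 11.4 CPM in BD and 19.3, 16 and 16.4 CPM in NBD (-0.53 ± 0.19), and MTERF2, of a family that binds mitochondrial DNA, at 8.32, 8.6 and 7.75 against 11.2, 10.3 and 12.9 CPM (-0.48 ± 0.20). In neither did the groups overlap, and edgeR's adjusted p was 0.546 and 0.568. The median of these 40 was -0.087, and it ran from -0.14 (without BD replicate 2 or NBD replicate 1) to 0.015 (without BD replicate 3).

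The next 3 groups, all transcribed from nuclear genes, lay below 0 in BD with 0 members called by edgeR. The first held SR splicing factors, the CLK kinases that phosphorylate them and related RNA-binding proteins, with 31 of 33 below 0, a median of -0.42, 14 at an unadjusted p under 0.05 in the lower direction and 14 with groups that did not overlap (backgrounds 5.58% and 7.91%). DESeq2 called 5 of them lower. LUC7L3, a spliceosome-associated protein, was at 42.8, 25.7 and 24.9 CPM in BD and 125, 86.3 and 78.2 CPM in NBD (-1.63 ± 0.27, edgeR, adjusted p = 0.143). In both groups replicate 1 was the highest, and the groups did not overlap. PNISR, a serine- and arginine-rich protein of nuclear speckles, was at 43.5, 33.3 and 32.1 CPM against 86.2, 71.2 and 66.8 CPM (-1.04 ± 0.19). SRSF5 was at 57.7, 56.3 and 64.6 CPM against 97.5, 112 and 109 CPM (-0.83 ± 0.15), and SRSF11 at 72.7, 62.7 and 57.6 CPM against 123, 123 and 106 CPM (-0.87 ± 0.16). Both are SR splicing factors, and edgeR's adjusted p for PNISR, SRSF5 and SRSF11 was 0.187, 0.195 and 0.206.

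The second group was a list of long non-coding RNAs, only some of which stay in the nucleus or host microRNAs. In it 17 of 20 were below 0, at a median of -0.61. It had 8 at an unadjusted p under 0.05 in the lower direction and 6 without overlap (backgrounds 5.58% and 7.91%). Of all 1975 long non-coding RNAs tested, 113 were lower at that p and 150 lower without overlap. MIR205HG, the host gene of an epithelial microRNA, was at 598, 386 and 462 CPM in BD and 1675, 1017 and 1295 CPM in NBD (-1.46 ± 0.26, edgeR, adjusted p = 0.187). MALAT1, a nuclear speckle RNA, was at 2622, 2576 and 3343 CPM against 5921, 4644 and 6785 CPM (-1.02 ± 0.26, adjusted p = 0.433 by edgeR). NEAT1, the scaffold of paraspeckles, was at 217, 221 and 241 CPM against 706, 1516 and 324 CPM (-1.91 ± 0.46, adjusted p = 0.432 by edgeR). The BD libraries agreed closely for NEAT1, while the NBD libraries spread widely, with NBD replicate 2 highest and NBD replicate 3 nearest to BD. MIR17HG, the host of the miR-17 cluster, was at 19.4, 13.3 and 14.2 CPM against 32.6, 26.1 and 23 CPM (-0.80 ± 0.22). DESeq2 called 3 members of the list, MIR205HG, MALAT1 and NEAT1. The median was -0.36 without NBD replicate 2 and -0.41 without NBD replicate 1. Among small nucleolar RNA host genes, 18 of 26 were below 0, and 6 had an unadjusted p under 0.05, all lower (background 5.58%). Their median of -0.17 moved to -0.057 when BD replicate 1 and to -0.11 when NBD replicate 3 was left out. SNHG1 was at 104, 70.7 and 62.7 CPM in BD and 186, 166 and 142 CPM in NBD (-1.05 ± 0.22, edgeR, adjusted p = 0.301), without overlap.

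The third group was genes of G2 and mitosis, with 33 of 39 below 0, a median of -0.40, 16 at an unadjusted p under 0.05 and 15 without overlap, all lower in BD (backgrounds 5.58% and 7.91%). CENPE, a kinesin that moves chromosomes at the kinetochore, was at 50, 43 and 35.9 CPM in BD and 119, 137 and 106 CPM in NBD. It was the first gene outside the threshold, at -1.49 ± 0.19 (edgeR, adjusted p = 0.0528). CENPF, a kinetochore protein, was at 409, 253 and 268 CPM against 746, 668 and 570 CPM (-1.09 ± 0.24, edgeR, adjusted p = 0.325). KIF23, a motor of cytokinesis, was at 148, 140 and 121 CPM against 213, 228 and 210 CPM (-0.67 ± 0.16), and KIF20B was at 62.2, 68.9 and 59.8 CPM against 84.1, 128 and 112 CPM (-0.77 ± 0.19). In these 4 the groups did not overlap. The proliferation marker MKI67 did overlap, at 253, 142 and 131 CPM in BD and 481, 629 and 220 CPM in NBD (-1.34 ± 0.39, edgeR, adjusted p = 0.474). DESeq2 called 3 of the 39 lower, CENPE, CENPF and KIF23 (DESeq2, adjusted p = 1.3e-08, 0.00427 and 0.029). Genes of S phase and DNA replication showed no common direction, with 20 of 40 on each side of 0 and a median of 0.004. In that list UNG, which removes uracil from DNA, was at 75.7, 83.1 and 71.7 CPM in BD and 49.7, 41.5 and 57.3 CPM in NBD (0.63 ± 0.17), and the licensing factor CDT1 at 34.7, 35.2 and 30.3 against 26, 21.8 and 17 CPM (0.63 ± 0.19). TYMS, thymidylate synthase, lay the other way with overlapping groups, at 20.8, 17.2 and 13.3 CPM against 31.6, 26.8 and 20 CPM (-0.61 ± 0.24). The difference between these 2 lists was not tested.

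**Figure D4:**
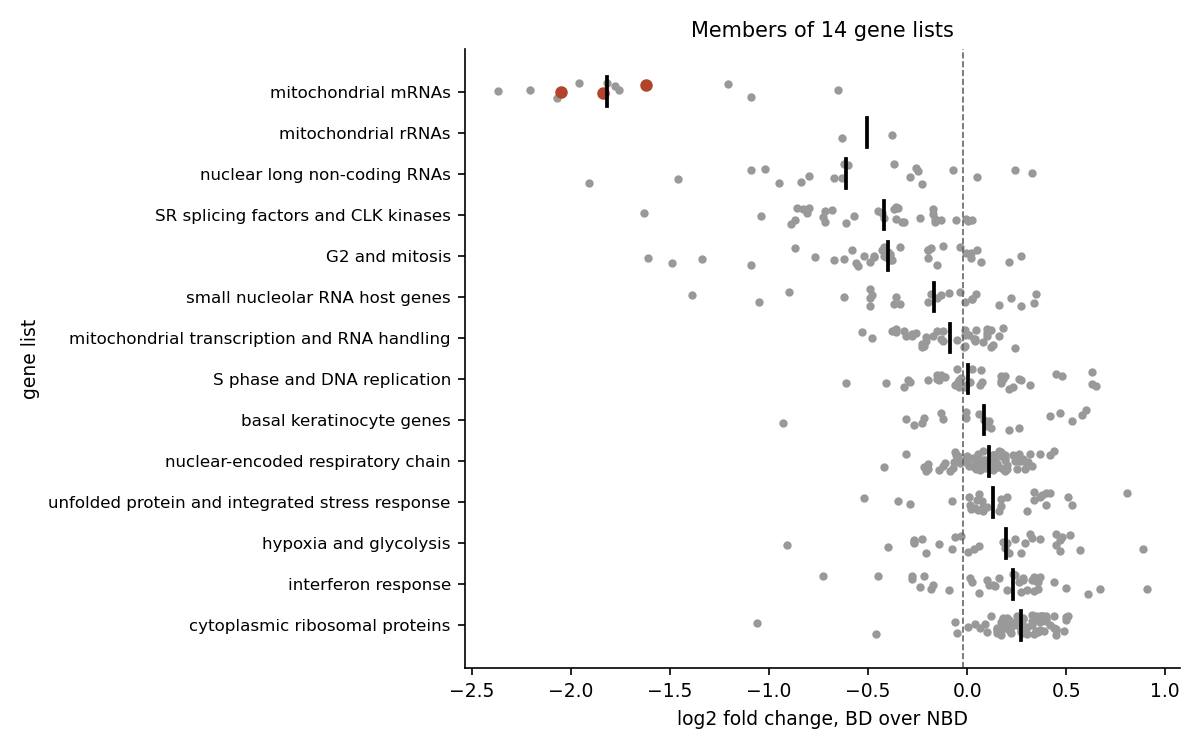
Log2 fold changes of BD over NBD for the tested members of 14 gene lists; each dot is a gene, black bars are list medians, red dots are called genes and the dashed line is the median of all genes tested, -0.022. The mitochondrial mRNAs are the list with red dots, at a median of -1.82, and the ribosomal protein genes have the highest median, 0.27.

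No gene was called higher in BD. The 12 with the smallest unadjusted p among those above 5 CPM with groups that did not overlap had log2 fold changes of 0.64 to 0.89 and edgeR adjusted p of 0.301 to 0.433, and DESeq2 called all but EPHB2. ALDOA, the aldolase of glycolysis, was at 28, 41.7 and 35.1 CPM in BD and 18.8, 18.2 and 19.6 CPM in NBD (0.89 ± 0.19). ATP6V0D1, a subunit of the proton pump of lysosomes, was at 74.5, 79 and 70.4 CPM against 50.5, 37.5 and 42.6 CPM (0.78 ± 0.17). TNFRSF1A, a receptor for tumour necrosis factor, was at 110, 117 and 115 CPM against 76.9, 71 and 68.7 CPM (0.66 ± 0.15). In each the BD libraries lay above the NBD range, which the choice of these genes required. For ALDOA the BD libraries varied more than the NBD libraries. CENPB (0.64 ± 0.15), which binds centromeric DNA, and ASF1B (0.73 ± 0.17), a histone chaperone, followed. Also among them were NUCB1, FUT1, H1-10, BTBD6, TIMP2, an inhibitor of metalloproteinases, and EPHB2, an ephrin receptor.

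Several lists lay above 0 with 0 members called. Of 79 genes for proteins of the cytoplasmic ribosome, 75 were above 0, at a median of 0.27, but 0 had an unadjusted p under 0.05 in the higher direction and in 0 did the BD libraries lie wholly above the NBD libraries (background 6.85%). The summed level of these genes was 37437, 64121 and 57938 CPM in BD and 27661, 42492 and 58541 CPM in NBD. Replicate 1 was the lowest in both groups and NBD replicate 3 lay within the BD range. The median was 0.038 without NBD replicate 1, 0.12 without BD replicate 2, and 0.47 and 0.58 when BD replicate 1 or NBD replicate 3 was left out. RPL36A went the other way, at 7.34, 6.01 and 5.98 CPM in BD and 14.6, 14 and 11.8 CPM in NBD (-1.06 ± 0.21, edgeR, adjusted p = 0.232). It has near-identical copies and a readthrough partner in the genome, so its count is uncertain.

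Of 32 genes of hypoxia and glycolysis tested, 21 were above 0, at a median of 0.20, and 5 had an unadjusted p under 0.05, all higher (background 3.02%). Besides ALDOA, the glycolytic enzyme GPI was at 303, 343 and 286 CPM in BD and 239, 222 and 190 CPM in NBD (0.52 ± 0.18), and PFKL at 105, 118 and 105 against 88.7, 77.3 and 73.7 CPM (0.45 ± 0.16). The list median was 0.074 without NBD replicate 1, and 0.11 and 0.33 when BD replicate 2 or NBD replicate 2 was left out. Of 37 interferon response genes, 28 were above 0 at a median of 0.23, 2 with an unadjusted p under 0.05, both higher (background 3.02%). These were TAP1, a peptide transporter of antigen presentation, at 182, 222 and 208 CPM in BD and 134, 109 and 143 CPM in NBD (0.67 ± 0.18, adjusted p = 0.442 by edgeR and 0.0461 by DESeq2), and the transcription factor IRF1, at 167, 182 and 187 against 156, 93.9 and 103 CPM (0.61 ± 0.21). Its median was 0.14 without NBD replicate 2 and 0.36 without NBD replicate 3. Of 30 genes of the unfolded protein and integrated stress response, 26 were above 0 at a median of 0.13. An unadjusted p under 0.05 was reached by 3, all higher (background 3.02%). Leaving out BD replicate 1 or NBD replicate 3 put the median at 0.24 or 0.26. TRIB3, a target of the stress factors ATF4 and CHOP, was at 166, 246 and 154 CPM in BD and 124, 105 and 94.8 CPM in NBD (0.81 ± 0.22, edgeR, adjusted p = 0.442). In sterol and fatty acid synthesis the members pointed both ways. HMGCS1, of the cholesterol pathway, was at 52.1, 49.3 and 43.1 CPM in BD and 66.5, 95.3 and 82.2 CPM in NBD (-0.76 ± 0.18), while SREBF1, a regulator of lipid synthesis, was at 110, 107 and 118 against 97.4, 62.9 and 48.2 CPM (0.69 ± 0.25). Neither pair of groups overlapped and neither gene was called (edgeR, adjusted p = 0.432 and 0.546).

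Keratinocyte state genes were not called. KRT5 was at 698, 493 and 506 CPM in BD and 501, 650 and 317 CPM in NBD (0.21 ± 0.28), KRT14 at 157, 330 and 368 against 137, 426 and 373 CPM (-0.13 ± 0.43), and TP63 at 190, 246 and 332 against 157, 227 and 259 CPM (0.26 ± 0.26). In all of them the groups overlapped, and for KRT14 replicate 1 was the lowest of both groups. KRT15, ITGA6 and KRT10 were at -0.004 ± 0.23, -0.0033 ± 0.20 and -0.15 ± 0.25, and ITGB1, the beta-1 integrin used to enrich basal cells, at -0.22 ± 0.21. The sign of KRT15, ITGA6 and KRT14 changed with the scaling by library totals and with other settings, and the sign of KRT5 and KRT10 when 1 library was left out, so none of these 5 is given a direction. TFRC, the transferrin receptor, was at 450, 312 and 341 CPM in BD and 445, 519 and 575 CPM in NBD (-0.48 ± 0.21, edgeR, adjusted p = 0.58). The differentiation gene IVL had 0 to 2 counts in the BD libraries and 0, 14 and 3 counts in NBD, too few to be tested, and CDKN1A, an inhibitor of the cell cycle, was at 13.9, 24.6 and 36.9 against 9.5, 22.5 and 23.6 CPM (0.44 ± 0.40).

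Of 21 basal keratinocyte genes tested, 0 were called, 12 were above 0 and the median was 0.084, from -0.017 (without NBD replicate 3) to 0.18 (without NBD replicate 2). DST, which links the cytoskeleton to hemidesmosomes, was at 343, 188 and 237 CPM in BD and 659, 471 and 335 CPM in NBD, with overlap (-0.93 ± 0.30). LAMB3, a chain of laminin-332, was at 765, 729 and 786 CPM against 668, 468 and 370 CPM (0.60 ± 0.24) and its receptor subunit ITGA3 at 522, 568 and 604 against 465, 428 and 330 CPM (0.47 ± 0.20), both without overlap. KRT19, a keratin of simple epithelia, was at 833, 1135 and 1052 CPM against 684, 602 and 721 CPM (0.59 ± 0.21), and the transcription factor MYC at 235, 324 and 349 against 200, 207 and 207 CPM (0.57 ± 0.20). For MYC the NBD libraries hardly varied and all BD libraries lay above them. EdgeR's adjusted p for DST, LAMB3, ITGA3, KRT19 and MYC was 0.515, 0.568, 0.574, 0.546 and 0.546. Of 11 tested genes of spinous and cornified differentiation, 0 were called and 6 were below 0, at a median of -0.046 that ran from -0.22 when BD replicate 3 was left out to 0.16 when BD replicate 2 was. Across all 34 lists, edgeR called members of the mitochondrial mRNA list (3) and of a list of small structural RNAs (SNORD3A, 1 of 19 tested) and of no other list. The median of the small structural RNAs, -0.42, rested on single libraries, from -0.80 when NBD replicate 1 was left out to -0.082 when NBD replicate 3 was. The medians of the lists not described above lay between -0.16, for efflux transporters and aldehyde dehydrogenases, and 0.31, for simple epithelial and stress keratins. The first of these was nearer to 0 whichever library was left out, and was 0.041 without NBD replicate 2.

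Base composition and transcript length moved with the comparison. Over 11573 protein-coding genes with an annotated transcript, split in 6 bins, the genes of lowest GC content (30.2% to 39.8%) had a median of -0.18, with 273 at an unadjusted p under 0.05 lower in BD and 1 higher, and those of highest GC content (58.8% to 73.9%) had a median of 0.21, with 13 lower and 204 higher. The shortest transcripts had a median of 0.13 and the longest -0.14. The trend was not shared evenly by the libraries. In the lowest GC bin the median deviation from the mean of all 6 libraries was -0.089, -0.039 and -0.11 in BD and -0.12, 0.071 and 0.29 in NBD, so NBD replicate 1 lay below every BD library and NBD replicate 3 stood furthest apart. Without NBD replicate 3 the median of that bin was -0.048. With a trend over length and GC content removed from each library, a setting chosen after seeing the data, 5 genes were called, 4 of them the same. MT-ATP6 was then at -1.90 (edgeR, adjusted p = 0.0545), and SCARNA5 was called. The medians of the lists were -1.69 for the mitochondrial mRNAs, -0.46 for the long non-coding RNA list and -0.33 for the SR and CLK genes. They were -0.27 for G2 and mitosis and 0.25 for ribosomal proteins, while that of hypoxia and glycolysis was 0.067. For those lists the part of length and base composition beyond this fit was not tested.

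**Figure D5:**
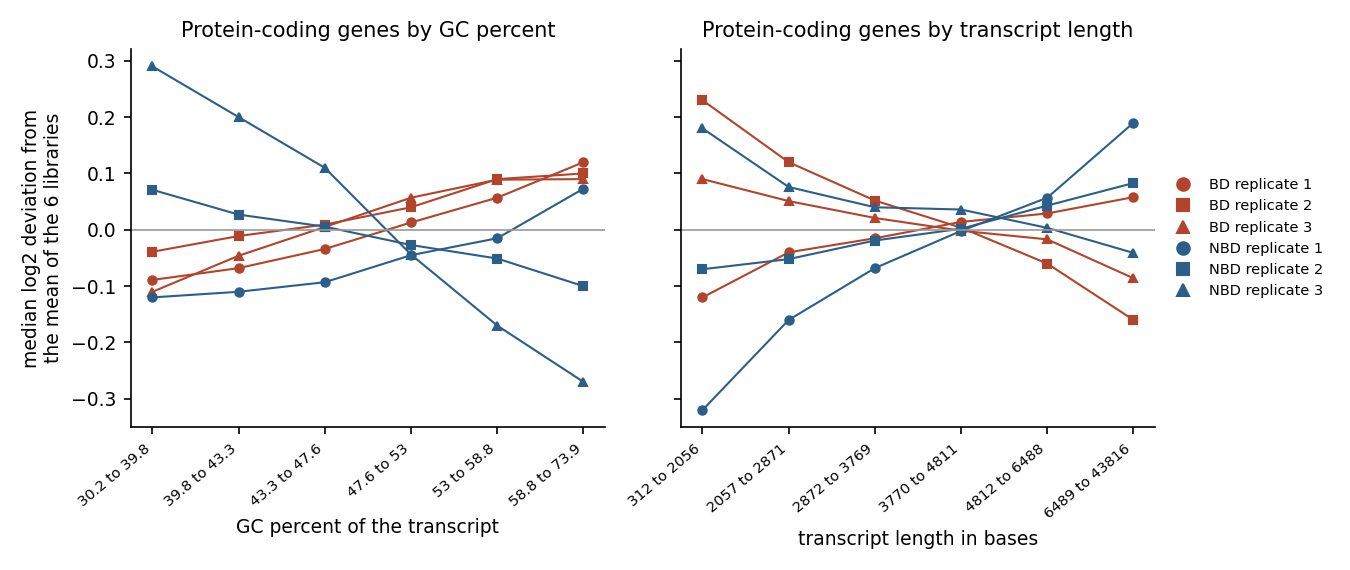
Median log2 deviation of each library from the mean of the 6 libraries (vertical axis) for protein-coding genes in 6 bins of transcript GC percent (left) and of transcript length in bases (right). On the left NBD replicate 3 falls from 0.29 to -0.27 across the bins while the 3 BD libraries and NBD replicate 1 rise, and on the right the lines cross without a split between BD and NBD.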

How the data were processed

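Total RNA of sorted HaCaT cells was sequenced in 3 BD and 3 NBD libraries. The authors deposited raw read counts, 1 value per gene and library, made with FastQC 0.74, Trimmomatic 0.39, STAR 2.7.11b and featureCounts on GRCh38, per the submitters' processing notes. The sources used here do not give the annotation, the use of strand or the handling of multi-mapping reads, so genes with copies or overlaps have uncertain counts. Of 78899 gene IDs, 37387 had a count in these libraries, and filterByExpr kept 16151. Types, coordinates and sequences came from GENCODE 29.

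The test was edgeR 4.0.16 in R 4.3.3 (TMM scaling, quasi-likelihood, no covariate, 4 residual degrees of freedom), two-sided, and p-values were adjusted by Benjamini-Hochberg across all 16151 genes. Standard errors were taken from the F statistic. Tested on simulated counts for this comparison over 16151 genes, it recovered 2.99% of genes changed 1.5-fold, 31.3% changed 2-fold and 100% changed 4-fold, with 8 false calls. The simulated counts were drawn independently for each library, and only genes above 4 CPM were changed. These rates hold for that setting and not for the real libraries, where SCARNA5, at a log2 fold change of -2.98, was not called. Shares of RNA classes were compared by exact permutation tests, whose 95% Wilson intervals, which cover counting error only, were at most 0.0362 percentage points wide. Named are, per direction, the 12 called genes of largest change with at least 5 CPM and groups that do not overlap, filled up by smallest p, up to 4 members of each of the 34 lists described, all mitochondrial mRNAs and rRNAs, and 13 fixed genes; some that the rule names are not reported here. The members and lists were chosen with earlier results of these data known. Alternatives were other scalings and filters, DESeq2 1.42.0, limma-voom (limma 3.58.1), a replicate block, all 9 libraries, gene subsets and leaving out each library.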

Additional observations from a re-analysis of the deposited data

How the results depend on the processing

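Against 5 genes called, all lower in BD, the count was 2 with scaling by library totals, 218 with no filter (195 lower, 23 higher), 109 with DESeq2 (90 lower, 19 higher), 8 with limma-voom, 3 with all 9 libraries, 0 with a log2 fold change of at least 1 required, 0 among protein-coding genes alone and 2 without the mitochondrial genome. Leaving out each library in turn gave 0 to 14 calls, all lower. With median-ratio size factors, with a filter of 1 CPM in 3 libraries and with the length and GC trend removed it was 5, 6 and 5. A replicate block by label number gave 164 calls, 149 lower and 15 higher, the 5 among them. The deviations of same-numbered libraries correlated at 0.642, 0.0796 and 0.344. Among differently numbered libraries, BD replicate 2 with NBD replicate 3 stood at 0.449, and the others ran from -0.594 to -0.0184. These values do not settle whether the numbers mark pairs. The labels give the numbers no stated origin, so the main fit did not take them as pairs.

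The sign turned for 5 of the keratinocyte state genes, all near 0. Over the alternatives it also turned for genes not described above. Among these were H2BC3 (-3.31 to 1.98), H3C3 (-4.08 to 0.13), SPARC (-2.95 to 0.21) and NRG1 (-0.55 to 0.11). KRT15 was at 0.011 with median-ratio size factors and with DESeq2, 0.12 with library totals, 0.027 with no filter, 0.0032 with limma-voom, 0.0036 with the replicate block, 0.012 with all 9 libraries, 0.013 without the mitochondrial genome, and -0.16 to 0.13 when each library was left out in turn. ITGA6 was at 0.01 with median-ratio size factors and with DESeq2, 0.12 with library totals, 0.028 with no filter, 0.014 with limma-voom, 0.017 with the replicate block, 0.011 with all 9 libraries, 0.013 without the mitochondrial genome, 0.11 with the trend removed, and -0.14 to 0.17 when each library was left out. KRT14 was at 0.0099 with library totals and -0.49 to 0.17 over the leave-one-out fits, KRT5 at -0.017 to 0.47 and KRT10 at -0.31 to 0.042. The cause was not tested. With 3 libraries a group, the test made few calls at changes under 2-fold, so a gene without a call is not shown to be equal.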
